A study of Mus musculus with 36 samples.

Results

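Transcripts of 9 Krüppel-like factors (Klf2, Klf3, Klf4, Klf6, Klf7, Klf9, Klf10, Klf13 and Klf15) were followed in mouse striatum after morphine. Every probe set that the platform annotation assigns to one of these genes, matched by Entrez identifier, was taken, which gave 31 probe sets of the 45101 on the array. Of these, 25 were detected, meaning an intensity above 100 on at least 9 of 36 arrays, against 27178 detected probe sets in all. Klf9 had 7 detected probe sets, Klf3 and Klf7 had 4 each, Klf6 had 3, Klf4 and Klf13 had 2 each, and Klf2, Klf10 and Klf15 had 1 each. The other 6 lay below the limit: 3 of Klf3 (1458487_at, 1421604_a_at and 1442920_at), 2 of Klf6 (1418280_at and 1459718_x_at) and 1 of Klf13 (1456030_at).

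Striatal RNA came from males of 4 inbred lines of mice, DBA/2J, 129P3/J, SWR/J and C57BL/6J, aged 8 to 10 weeks. The acute groups were injected with saline for 4 days and received 20 mg/kg of morphine on day 5. In the chronic groups, morphine was given 3 times daily in doses of 10 mg/kg (day 1), 20 mg/kg (day 2) and 40 mg/kg (days 3 and 4) before a final injection of 40 mg/kg on day 5, so the last dose differed between the acute and the chronic groups. The saline groups received saline throughout, and all tissue, the rostral caudate putamen together with the nucleus accumbens, was taken 4 h after the last injection. Each of the 12 groups of strain and treatment had 3 arrays, and each array held RNA pooled from 3 mice, so p-values measure the spread between pools. Acute and chronic differences share the same saline arrays.

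Krüppel-like factors are zinc finger proteins that bind GC-rich and CACCC sequences in promoters. Some members mainly activate transcription, others recruit corepressors such as Ctbp2 or the Sin3A and histone deacetylase complex, and several take part in hormone responses, vascular biology and neurite growth. Klf9 and Klf15 are well-known targets of glucocorticoids, Klf9 is also a thyroid hormone target in brain, and Klf15 controls amino acid catabolism in muscle and glucose production in liver. In retinal ganglion cells, Klf4 and Klf9 restrain axon growth while Klf6 and Klf7 favour it.

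The promoters of Klf15, Klf4 and Klf9 are shown because these 3 members were called higher after acute morphine, Klf4 and Klf9 only in the fit without treatment and replicate number together as a random term. The sequences are from RefSeq on GRCm38.p6 and run from 250 bases before to 50 bases after the transcription start, written along the sense strand of the gene. Their positions are chr6:90462326-90462625, plus strand, for Klf15, chr4:55532426-55532725, minus strand, for Klf4 and chr19:23140976-23141275, plus strand, for Klf9. The window of Klf15 follows a transcript start that lies inside the gene as annotated (chr6:90461043-90491803), downstream of the gene's outermost start, while those of Klf4 and Klf9 follow the annotated gene starts. Capitals mark CACCC, the Krüppel-like factor motif, read on either strand, so that GGGTG in capitals is a match on the opposite strand.
Klf15: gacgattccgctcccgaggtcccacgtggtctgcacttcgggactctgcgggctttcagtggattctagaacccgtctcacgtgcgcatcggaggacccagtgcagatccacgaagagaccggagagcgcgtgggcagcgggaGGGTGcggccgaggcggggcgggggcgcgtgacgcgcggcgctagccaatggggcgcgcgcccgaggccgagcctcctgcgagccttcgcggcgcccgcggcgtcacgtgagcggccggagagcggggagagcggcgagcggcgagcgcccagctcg
Klf4: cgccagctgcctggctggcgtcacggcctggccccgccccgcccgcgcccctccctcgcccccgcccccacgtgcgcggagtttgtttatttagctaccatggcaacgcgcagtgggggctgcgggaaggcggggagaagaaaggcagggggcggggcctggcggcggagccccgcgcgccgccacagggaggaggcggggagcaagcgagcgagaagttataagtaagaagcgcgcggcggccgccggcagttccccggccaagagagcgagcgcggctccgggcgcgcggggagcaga
Klf9: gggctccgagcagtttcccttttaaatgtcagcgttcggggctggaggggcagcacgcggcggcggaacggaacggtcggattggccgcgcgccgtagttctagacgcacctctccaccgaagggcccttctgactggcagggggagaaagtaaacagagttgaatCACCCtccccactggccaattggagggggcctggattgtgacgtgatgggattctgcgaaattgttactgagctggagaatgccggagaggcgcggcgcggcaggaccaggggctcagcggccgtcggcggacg
CACCC was found once in Klf15 and once in Klf9 and not in Klf4, and 57.5% of 32851 promoter entries of the same length hold it. The Sp motif GGGCGG, searched on both strands, had 1 match in Klf15, 4 in Klf4 and 0 in Klf9, and 35.7% of all entries hold it. The glucocorticoid receptor core AGAACA, which 19.0% of entries hold, and the CREB site TGACGTCA, which 1.79% hold, had no match on either strand in the 8 member promoters found in the table. GC content was 73.3% in Klf15, 74.3% in Klf4 and 63.3% in Klf9, against a median of 52.7% over all entries. These matches describe the letters of a short window only.

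Array medians were 119 to 133 in intensity, no 2 arrays were identical, and the highest correlation between 2 arrays was 0.988. Drd2, Tac1 and the other detected markers of medium spiny neurons, the main cell type of striatum, 6 of 8 listed, had summed intensities of 13148 to 16250.4 in acute, 13533 to 15750.2 in chronic and 14068 to 16794 in saline arrays. Of these 6, 0 were called after acute morphine. Drd2 (-0.27, limma adjusted p = 0.00316) and Rgs9 (-0.18, adjusted p = 0.0142) were lower after chronic morphine than in saline, and Tac1 was lower in chronic than in acute arrays (-0.13, adjusted p = 0.0335), as log2 differences over the strains. In a fit with treatment and replicate number together as a random term, these 3 were not called (adjusted p = 0.0518, 0.183 and 0.170). With quantile normalization their differences were -0.24, -0.13 and -0.06. In that fit 1 of the 6 was called lower after acute morphine, 2 after chronic morphine and 0 between chronic and acute. The part of these markers in the members' differences was not tested. C57BL/6J saline replicate 1 stood apart, with a log2 signal of the 3′ over the 5′ control probe set of Gapdh of 0.72, against -0.11 to 0.12 in the other 35 arrays. That array was also the highest of the 36 for 6 of 25 member probe sets, among them Klf9 1456341_a_at at 1478 against 987 in the next array and Klf7 1419355_at at 287 against 185. Without it, Klf7 1419355_at changed from -0.07 to 0.01 after acute and from -0.05 to 0.03 after chronic morphine, as log2 differences from saline. The chronic difference changed from 0.09 to 0.20 for Klf9 1436763_a_at and from 0.07 to 0.18 for Klf13 1432543_a_at. None of these was called without it (adjusted p of 0.246 or more). Several other values that it moved are given without it beside the result.

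After acute morphine, Klf15, Klf4 1417394_at and Klf9 1428288_at were called higher than saline. With treatment and replicate number together as a random term, only Klf15 stayed called in this comparison. Over the 4 strains, the mean of the strains' log2 differences from saline was 0.45 (SE 0.074, limma adjusted p = 4.54e-04) for Klf15, 0.34 (SE 0.078, adjusted p = 0.0127) for Klf4 and 0.18 (SE 0.039, adjusted p = 0.00648) for Klf9 1428288_at. These correspond to 1.37 times the saline level for Klf15, 1.26 times for Klf4 and 1.13 times for Klf9. Of the 25 detected member probe sets, 3 (12%) were called higher and 0 lower at an adjusted p under 0.05, against 2.59% of all detected probe sets higher and 2.10% lower. The median difference over the 9 genes, each represented by its brightest detected probe set, was 0.14, against 0.02 over all detected genes. Of the 22 member probe sets that were not called, Klf7 1419356_at (-0.37, adjusted p = 0.0612) and Klf6 1433508_at (0.17, adjusted p = 0.0763) had the smallest adjusted p. In a joint F-test of the acute and chronic differences at an adjusted p under 0.01, the same 3 probe sets passed (12%), against 8.72% of all detected, with adjusted p of 3.22e-04 for Klf15, 0.00535 for Klf9 and 0.009998 for Klf4. With treatment and replicate number together as a random term, 0 members passed this F-test (adjusted p = 0.0152 for Klf15, 0.102 for Klf9 and 0.113 for Klf4). Klf4 lay at the edge of the test without that term: left out in turn, 26 of the 36 arrays ended the call (adjusted p up to 0.0219), and it stood only without 129P3/J saline or chronic replicate 2, C57BL/6J saline replicate 1, acute replicate 2 or chronic replicate 2, DBA/2J acute or chronic replicate 2, or SWR/J saline replicate 2, acute replicate 3 or chronic replicate 1. Klf9 missed it without 129P3/J saline replicate 1, 129P3/J acute replicate 3, C57BL/6J acute replicate 1, DBA/2J acute replicate 1 or 3, or SWR/J acute replicate 2 (adjusted p 0.0109 to 0.0125).

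Klf15 1448181_at carried the largest acute difference among the members. In DBA/2J its intensity was 341, 309 and 270.0 in the acute arrays, 175, 235 and 189 in the chronic arrays and 188, 201 and 209 in the saline arrays. In C57BL/6J it was 414, 348 and 343 in acute, 298, 323 and 246 in chronic and 280.2, 235 and 243 in saline arrays. All acute arrays of these strains lay above all of their saline arrays and above all of their chronic arrays. In 129P3/J it was 288, 293 and 241 in acute, 178, 249 and 228 in chronic and 198, 238 and 228 in saline arrays, so acute and saline did not overlap but acute and chronic did. In SWR/J it was 333, 330.2 and 243 in acute, 293, 224 and 229.9 in chronic and 259.9, 238 and 214 in saline arrays, and here the lowest acute array lay within the saline range. In all, 11 of 12 acute arrays exceeded the highest saline array of their own strain. Klf15 averaged 313 ± 49.5 in acute, 239 ± 46.9 in chronic and 228 ± 26.9 in saline arrays (SD, n = 12 each).

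**Figure D1:**
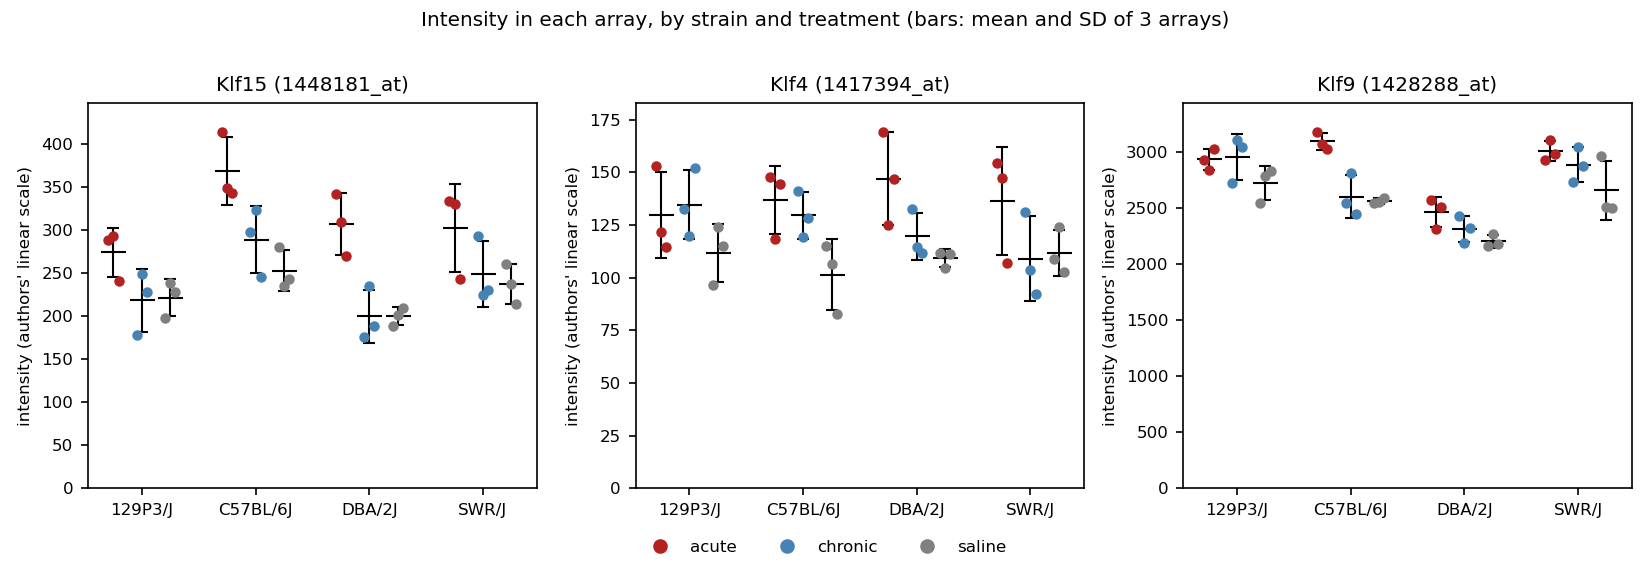
Intensity of Klf15, Klf4 and Klf9 in each array (y axis, the authors' linear scale from 0) for the 4 strains (x axis), with acute, chronic and saline arrays from left to right in each strain; points are arrays, and bars are the mean and SD of 3 arrays. For Klf15, the acute arrays of 129P3/J, C57BL/6J and DBA/2J lie above every saline array of the same strain, while in SWR/J 1 acute array at 243 lies within the saline range of 214 to 259.9.

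Klf4 1417394_at, whose product is known as a reprogramming factor and as a regulator of endothelial cells, lay close to the detection limit, between 82.7 and 169 over all arrays. In DBA/2J its intensity was 169, 125 and 147 in acute, 132, 115 and 112 in chronic and 112, 104 and 111 in saline arrays, and in C57BL/6J it was 148, 118 and 144 in acute, 141, 119 and 129 in chronic and 115, 107 and 82.7 in saline arrays. Acute and saline arrays did not overlap in these strains. In 129P3/J, values of 153, 122 and 115 in acute and 132, 119.7 and 152 in chronic arrays overlapped with 96.5, 124 and 115 in saline arrays. In SWR/J, values of 154, 148 and 107 in acute and 131, 103 and 92.1 in chronic arrays overlapped with 109, 124 and 103 in saline arrays. The second Klf4 probe set, 1417395_at, had an acute difference in the same direction that did not pass the test (0.25, SE 0.10, adjusted p = 0.164), and it averaged 123 ± 24.3 in acute, 103 ± 18.7 in chronic and 104 ± 25.8 in saline arrays (SD, n = 12 each). Without C57BL/6J saline replicate 1 its acute difference was 0.31 (adjusted p = 0.0847).

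Klf9 1428288_at had a small difference with little spread. In C57BL/6J its intensity was 3179, 3067 and 3026 in acute, 2543, 2811 and 2443 in chronic and 2542, 2553 and 2586 in saline arrays. In DBA/2J it was 2569, 2311 and 2511 in acute, 2423, 2187 and 2324 in chronic and 2163, 2269.7 and 2177 in saline arrays. Acute and saline arrays were separate in both strains. In 129P3/J they were separate as well, with 2929, 2840.5 and 3027 in acute, 2723, 3099.8 and 3040.2 in chronic and 2547, 2779 and 2830.2 in saline arrays. In SWR/J, where values were 2929, 3105 and 2982 in acute, 2731, 3043 and 2872 in chronic and 2961, 2507 and 2495 in saline arrays, the highest saline array lay within the acute range.

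The other Klf9 probe sets did not show this rise. The acute difference of 1428289_at was 0.09 (adjusted p = 0.515), and those of the remaining 5 lay between -0.21 and 0.03, with adjusted p of 0.548 or more. Without C57BL/6J saline replicate 1, the acute difference was 0.16 (adjusted p = 0.0617) for 1428289_at, -0.03 for 1456341_a_at, against -0.21 with it, and -0.04 for 1436763_a_at, against -0.15 with it. Averaged over its 7 detected probe sets, Klf9 differed from saline by -0.01 (SE 0.062, adjusted p = 0.951) after acute morphine, and by 0.04 (SE 0.051, adjusted p = 0.742) without that array. The 7 probe sets followed each other poorly over the 36 arrays, with correlations of -0.32 to 0.86 after removal of strain means. The acute call for Klf9 therefore refers to 1428288_at alone.

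Arrays that shared a treatment and a replicate number deviated together across strains, and the labels do not say what the number stands for. The mean correlation of their deviations from the group means was 0.264 over 54 pairs of arrays, with a range of -0.47 to 0.66. With treatment and number as a random term in the fit, Klf15 stayed called after acute morphine (adjusted p = 0.0225), and Klf9 (adjusted p = 0.140) and Klf4 (adjusted p = 0.152) did not. Leaving out any of the 36 arrays in turn kept all of these 3 calls in the original fit, with adjusted p up to 0.00156 for Klf15, 0.0309 for Klf4 and 0.0177 for Klf9. Without C57BL/6J saline replicate 1 the acute differences were 0.47 for Klf15, 0.36 for Klf4 and 0.18 for Klf9.

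In the chronic groups Klf15 lay below its acute level and close to saline. The difference of chronic from acute was -0.40 over the strains (adjusted p = 7.25e-04, and 0.0176 with treatment and number as a random term), and it was negative in all 4 strains. Against saline, chronic morphine left Klf15 at 0.05 with a 95% interval of -0.10 to 0.20 (adjusted p = 0.720). Klf4 and Klf9 1428288_at lay between, with chronic differences from saline of 0.18 (95% interval 0.02 to 0.34, adjusted p = 0.180) and 0.08 (0.00 to 0.16, adjusted p = 0.216). Their chronic levels were not called different from the acute ones, at -0.16 (adjusted p = 0.146) for Klf4 and -0.10 (adjusted p = 0.0634) for Klf9. Averaged over its 2 probe sets, Klf4 was called lower in chronic than in acute arrays (-0.21, adjusted p = 0.0244, and 0.135 with treatment and number as a random term).

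Against saline within single strains, Klf15 in DBA/2J was the only member called. Its acute difference from saline there was 0.62 (SE 0.15, adjusted p = 0.0404), against 0.54 in C57BL/6J (adjusted p = 0.152), 0.34 in SWR/J (adjusted p = 0.562) and 0.31 in 129P3/J (adjusted p = 1.00). The DBA/2J call was lost without DBA/2J saline replicate 1 or 3 (adjusted p = 0.172 and 0.137) or without DBA/2J acute replicate 1, 2 or 3 (0.198, 0.0681 and 0.105). Of all detected probe sets, 0.975% were called after acute morphine in DBA/2J, 0.291% in C57BL/6J, 0.0478% in SWR/J and 0.0147% in 129P3/J. After chronic morphine 0 of 25 member probe sets were called in any strain, against 1.75% of all detected in C57BL/6J, 0.0294% in SWR/J, 0.00736% in DBA/2J and 0.00368% in 129P3/J. Strains were not shown to differ in their response: the interaction F-test called 0 of 25 member probe sets and 0 (0%) of all 27178 by limma at an adjusted p under 0.01, with 1 member probe set, Klf9 1452723_at, at an unadjusted p under 0.05. Klf10 had an acute difference of 0.58 in DBA/2J, where acute and saline arrays did not overlap, and of -0.34 in 129P3/J, -0.26 in C57BL/6J and -0.14 in SWR/J, and the acute part of its interaction with strain did not pass the test (adjusted p = 0.689).

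**Figure D2:**
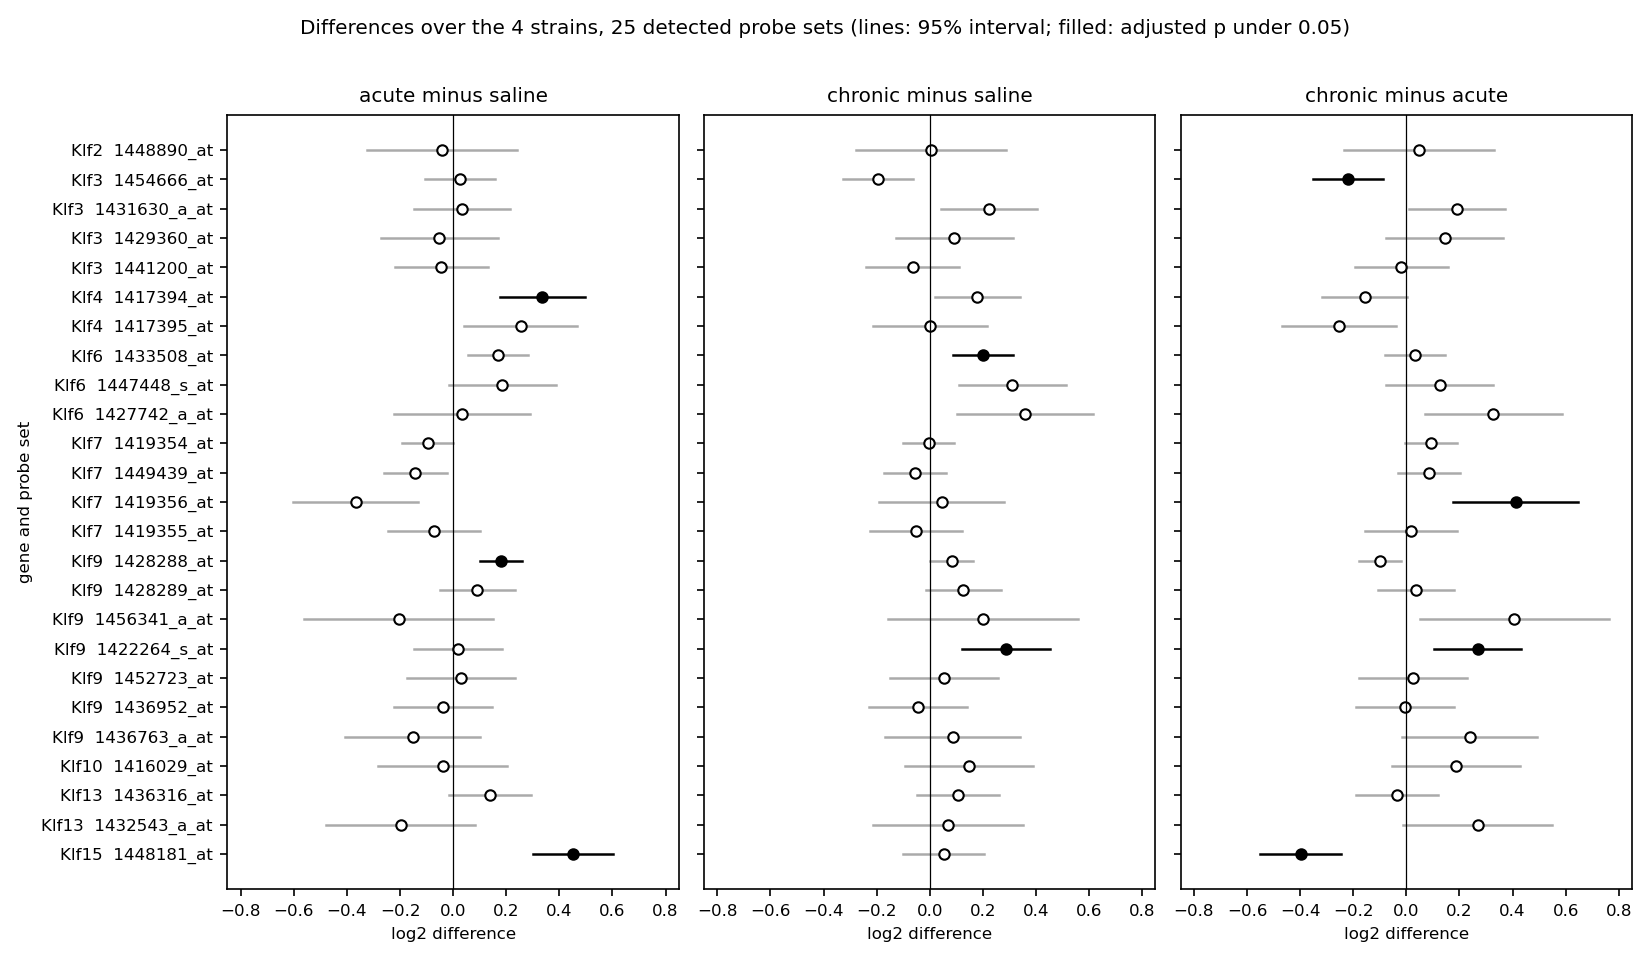
Log2 differences over the 4 strains (x axis) for the 25 detected probe sets (y axis), in panels for acute minus saline, chronic minus saline and chronic minus acute; points are fitted differences, lines are 95% intervals, and filled points have an adjusted p under 0.05. Filled points are Klf4, Klf9 1428288_at and Klf15 after acute morphine, Klf6 1433508_at and Klf9 1422264_s_at after chronic morphine, and Klf3 1454666_at, Klf7 1419356_at, Klf9 1422264_s_at and Klf15 between chronic and acute.

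After chronic morphine, 2 of 25 member probe sets (8%) were called higher than saline and 0 lower, against 1.36% higher and 3.38% lower of all detected. They were Klf6 1433508_at at 0.20 (SE 0.055, adjusted p = 0.0348), a factor tied to axon growth, and Klf9 1422264_s_at at 0.29 (SE 0.080, adjusted p = 0.0368). Klf6 averaged 378 ± 38.3 in chronic and 328 ± 22.5 in saline arrays (SD, n = 12 each), and 10 of 12 chronic arrays exceeded the highest saline array of their strain. In 129P3/J its intensity was 351, 379 and 469 in chronic arrays against 318, 319.9 and 343 in saline arrays, and in DBA/2J it was 362, 392 and 412 against 309, 313 and 316. These groups did not overlap, whereas those of C57BL/6J and SWR/J did. The other detected Klf6 probe sets had positive chronic differences that did not pass the test, 0.31 (adjusted p = 0.0633) for 1447448_s_at and 0.36 (adjusted p = 0.0893) for 1427742_a_at, and each was positive in all 4 strains. Averaged over the 3 probe sets, Klf6 was 0.29 higher in chronic than in saline arrays (adjusted p = 0.0207, and 0.198 with treatment and number as a random term). After acute morphine Klf6 1433508_at averaged 369.8 ± 38.5 (SD, n = 12), and its chronic level differed from the acute one by 0.03 (95% interval -0.08 to 0.14).

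Klf9 1422264_s_at had its highest chronic values in SWR/J and 129P3/J. Its intensity was 784, 543 and 611 in chronic, against 639.9, 487 and 575 in saline arrays of SWR/J, and 692, 579 and 730.4 in chronic, against 444, 411 and 498 in saline arrays of 129P3/J. Chronic and saline arrays were separate in 129P3/J and in C57BL/6J (349, 288 and 276 in chronic, 239, 263 and 248 in saline arrays), and overlapped in SWR/J and DBA/2J.

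Both chronic calls were fragile. Klf6 missed the threshold without 129P3/J saline replicate 1 or 2, 129P3/J chronic replicate 3, C57BL/6J saline replicate 1, C57BL/6J chronic replicate 1, DBA/2J saline replicate 1, DBA/2J chronic replicate 3, SWR/J saline replicate 2 or SWR/J chronic replicate 2 or 3 (adjusted p 0.0539 to 0.0674). Klf9 1422264_s_at missed it without 129P3/J saline replicate 1 or 2, 129P3/J chronic replicate 1 or 3, C57BL/6J saline replicate 1, C57BL/6J chronic replicate 1, DBA/2J saline replicate 2, DBA/2J chronic replicate 1, SWR/J saline replicate 2 or SWR/J chronic replicate 1 or 3 (adjusted p 0.0517 to 0.0819). With treatment and number as a random term, neither was called (adjusted p = 0.324 for Klf6 and 0.263 for Klf9). Without C57BL/6J saline replicate 1, Klf9 1428289_at was called after chronic morphine (0.19, adjusted p = 0.0225), against 0.13 (adjusted p = 0.288) with that array. The chronic difference of Klf9 1456341_a_at was 0.37 (adjusted p = 0.0758) without it and 0.20 (adjusted p = 0.531) with it.

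Between chronic and acute morphine, 2 of 25 member probe sets were called higher after chronic (8%, against 8.87% of all detected) and 2 lower (8%, against 14.6%). The lower ones were Klf15 and Klf3 1454666_at, and the higher ones were Klf7 1419356_at and Klf9 1422264_s_at (0.27, adjusted p = 0.0169). Klf3, a repressor that binds Ctbp proteins, averaged 355 ± 29.6 in chronic and 416 ± 53.5 in acute arrays (SD, n = 12 each), a difference of -0.22 (SE 0.065, adjusted p = 0.0152). In DBA/2J it was 343, 368 and 398 in chronic arrays against 476, 435 and 542 in acute arrays, and in SWR/J it was 333, 391 and 341 against 420.3, 403 and 440.0. Chronic and acute arrays were separate in these strains. Against saline, 1454666_at was not called after either treatment. The chronic difference was -0.20 (adjusted p = 0.0747, and 0.374 with treatment and number as a random term), negative in all 4 strains. The acute difference was 0.03 (adjusted p = 0.883). With 1 array left out in turn, the chronic difference from saline was called in 4 of 36 fits. A second Klf3 probe set, 1431630_a_at, had differences of the opposite sign (0.19 against acute and 0.22 against saline, adjusted p = 0.118 and 0.136), the correlation of the 2 probe sets over the arrays was -0.38, and over the 4 detected Klf3 probe sets the mean difference of chronic from acute was 0.02 (adjusted p = 0.767).

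Klf7 1419356_at was 0.41 higher after chronic than after acute morphine (SE 0.11, adjusted p = 0.0111) and did not differ from saline in the chronic groups beyond its error (0.04, 95% interval -0.19 to 0.28). Klf7 is a close relative of Klf6 that is active in developing neurons. In C57BL/6J its intensity was 435, 329.7 and 479 in chronic, 265, 256 and 283 in acute and 285, 362 and 278 in saline arrays. In DBA/2J it was 577, 501 and 484 in chronic, 343, 437 and 324 in acute and 728, 526 and 572 in saline arrays. Acute arrays were thus below all chronic arrays in these strains, and in DBA/2J below all saline arrays. In 129P3/J a single chronic array at 375 stood above the others, with 183 and 187 in the remaining chronic arrays, against 174, 185 and 170.3 in acute arrays. The acute difference of Klf7 1419356_at from saline passed the test without 129P3/J chronic replicate 1, DBA/2J saline or acute replicate 2, SWR/J saline replicate 2 or SWR/J chronic replicate 1 (adjusted p 0.0256 to 0.0458). The other Klf7 probe sets had differences of 0.02 to 0.09 between chronic and acute with adjusted p of 0.157 or more, and averaged over its 4 probe sets Klf7 was 0.15 higher in chronic than in acute arrays (adjusted p = 0.0237, and 0.164 with treatment and number as a random term). That average was also called lower in acute than in saline arrays (-0.17, adjusted p = 0.0398), but not with the random term (adjusted p = 0.316) or without C57BL/6J saline replicate 1 (-0.14, adjusted p = 0.0720). With treatment and number as a random term, the adjusted p of the 3 calls other than Klf15 were 0.0846 for Klf7, 0.0943 for Klf3 and 0.0956 for Klf9. Without C57BL/6J saline replicate 1, Klf9 1456341_a_at (0.41, adjusted p = 0.0135) and Klf6 1427742_a_at (0.33, adjusted p = 0.0499) were also called higher in chronic than in acute arrays.

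**Figure D3:**
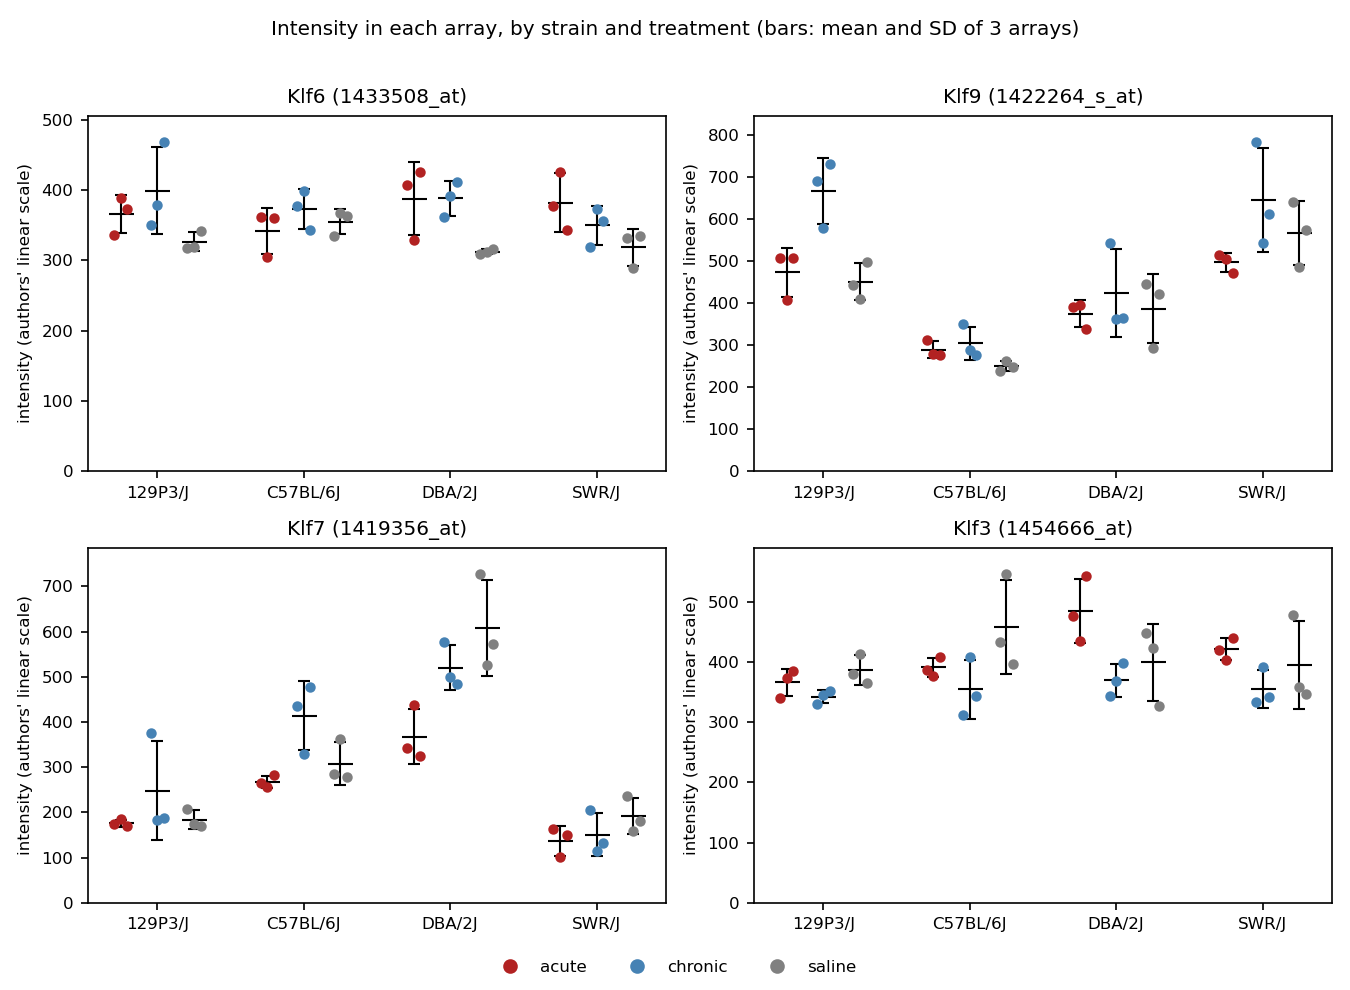
Intensity (y axis, the authors' linear scale from 0) of Klf6 1433508_at, Klf9 1422264_s_at, Klf7 1419356_at and Klf3 1454666_at in each array of the 4 strains (x axis), with acute, chronic and saline arrays from left to right; points are arrays and bars the mean and SD of 3 arrays. The Klf6 chronic arrays of DBA/2J, at 362 to 412, lie above its saline arrays at 309 to 316, and the Klf7 panel shows the strains further apart than the treatments.

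Strain differences were larger than morphine differences for some probe sets. By the strain F-test at an adjusted p under 0.01, 5 of 25 member probe sets passed (20%), against 13.2% of all detected: Klf7 1419356_at (adjusted p = 1.16e-10), Klf9 1422264_s_at (1.48e-09), Klf9 1428288_at (8.50e-06), Klf9 1428289_at (2.51e-05) and Klf15 (0.00422). Klf7 1419356_at averaged 499 ± 124 in DBA/2J, 330.2 ± 79.8 in C57BL/6J, 203 ± 65.8 in 129P3/J and 159.9 ± 43.0 in SWR/J (SD, n = 9 each). DBA/2J exceeded SWR/J by 1.65 (SE 0.13, adjusted p = 1.01e-10) with no overlap of their arrays, while 129P3/J and SWR/J, neighbours in this order, were not called different. Klf7 1419354_at, whose arrays overlapped between strains, averaged 777 ± 46.1 in 129P3/J and 688 ± 64.4 in C57BL/6J (difference 0.18, adjusted p = 0.0348), so C57BL/6J exceeded 129P3/J in 1419356_at and lay below it in 1419354_at.

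The 3 Klf9 probe sets that passed ranked the strains differently. Klf9 1422264_s_at averaged 570.1 ± 98.0 in SWR/J, 530.4 ± 116 in 129P3/J, then 395 ± 71.9 in DBA/2J and 281 ± 33.4 in C57BL/6J, whereas 1428288_at averaged 2868 ± 176 in 129P3/J, 2847 ± 223 in SWR/J, 2750.0 ± 276 in C57BL/6J and 2326 ± 148 in DBA/2J (SD, n = 9 each). All pairs but 129P3/J and SWR/J were called for 1422264_s_at, and for 1428288_at only the pairs with DBA/2J were. In Klf9 1428289_at, all DBA/2J arrays (842 to 1041) lay below all SWR/J arrays (1139 to 1490.0). Klf15 averaged 303 ± 59.6 in C57BL/6J, 263 ± 45.3 in SWR/J, 238 ± 37.2 in 129P3/J and 235 ± 58.9 in DBA/2J, and C57BL/6J was called higher than 129P3/J (-0.34 for 129P3/J minus C57BL/6J, adjusted p = 0.00670) and than DBA/2J (0.38, adjusted p = 0.00271). The strain F-test of Klf15 missed its threshold without C57BL/6J saline, acute or chronic replicate 1 or chronic replicate 2 (adjusted p = 0.0133, 0.0150, 0.0108 and 0.0140). Over the pairs of strains, 5 of 25 member probe sets were called between 129P3/J and C57BL/6J (against 9.65% of all detected), 4 between 129P3/J and DBA/2J (7.87%), 0 between 129P3/J and SWR/J (8.10%), 4 between C57BL/6J and DBA/2J (8.94%), 4 between C57BL/6J and SWR/J (10.3%) and 4 between DBA/2J and SWR/J (8.04%).

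**Figure D4:**
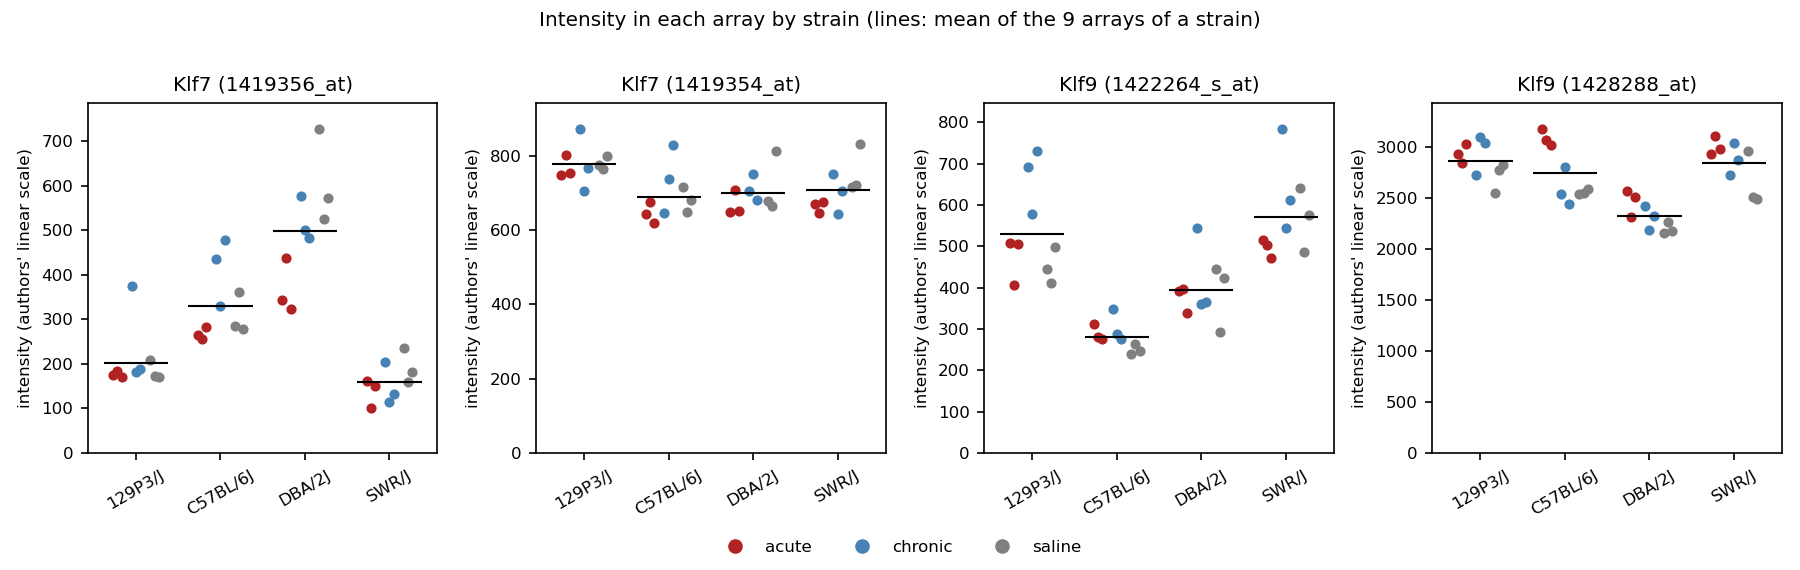
Intensity in each array (y axis, the authors' linear scale from 0) by strain (x axis) for Klf7 1419356_at, Klf7 1419354_at, Klf9 1422264_s_at and Klf9 1428288_at, with acute, chronic and saline arrays from left to right in each strain; lines are the mean of the 9 arrays of a strain. The strain means of Klf7 1419356_at run between 159.9 in SWR/J and 499 in DBA/2J, while those of Klf7 1419354_at run between 688 and 777.

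Klf2, Klf10 and Klf13 were not called in any comparison of treatments or strains. Klf2, a flow-responsive factor of endothelial cells, averaged 236 ± 61.6 in acute, 242 ± 64.1 in chronic and 240.2 ± 53.5 in saline arrays (SD, n = 12 each), and the 95% interval of its acute difference was -0.32 to 0.24. Klf10, known as an early gene of transforming growth factor beta, averaged 153 ± 33.3 in acute, 176 ± 44.6 in chronic and 157 ± 29.1 in saline arrays, with a chronic difference of 0.15 (95% interval -0.10 to 0.39). Klf13 1436316_at, a Sin3A-binding relative of Klf9, averaged 965 ± 137 in acute, 938 ± 90.1 in chronic and 874 ± 103 in saline arrays, with an acute difference of 0.14 (95% interval -0.02 to 0.29), and its second probe set 1432543_a_at had an acute difference of -0.20 (adjusted p = 0.464), and of -0.09 without C57BL/6J saline replicate 1.

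Over the 36 arrays, with strain means removed, Klf15 was correlated with Klf4 (r = 0.65) and with Klf9 1428288_at (r = 0.60). With the means of all 12 groups removed these were 0.45 and 0.25, so part of each lay between treatments. Klf6 and Klf10 had r = 0.59 with strain means removed and 0.70 with group means removed, and Klf7 1419354_at and Klf9 1428288_at had -0.63 and -0.53. These are descriptions, since values of 1 array share its RNA pool and its normalization. Among 13213 other detected genes, those most like Klf15 over the 36 arrays with strain means removed were Azin1 (r = 0.83), Mxd4 (0.83), Slc25a33 (0.83) and Errfi1 (0.81). For Klf9 1428288_at they were Aff1 (0.82), Acap2 (0.82), Smim3 (0.80) and Rin2 (0.77), and for Klf4 they were Sap30 (0.73), Rhpn2 (0.73), Cited2 (0.72) and Ubxn7 (0.70).

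Genes that respond to glucocorticoids in many tissues moved in the same comparisons. Of 12 listed and detected, 8 were called higher and 0 lower after acute morphine (median 0.25). After chronic morphine 5 were higher and 0 lower (median 0.18). The medians over all detected genes were 0.02 and -0.02. Beside this list and those below, 2.59% of all detected probe sets were called higher and 2.10% lower after acute morphine. The shares after chronic morphine were 1.36% higher and 3.38% lower. The acute and chronic differences were 0.89 and 0.68 for Fkbp5, a cochaperone of the glucocorticoid receptor, 0.85 and 0.55 for Tsc22d3, and 0.81 and 0.32 for Pdk4. The chronic Pdk4 call (adjusted p = 0.0463) was lost with treatment and number as a random term (0.253). Zbtb16 had the highest difference after each treatment and went the other way, at 0.90 after acute and 1.25 after chronic morphine. Both Zbtb16 calls stayed with the random term (adjusted p = 0.00504 and 2.86e-04). The lowest acute difference of the list was -0.31. Between chronic and acute, 5 of 12 were lower, against 14.6% of all detected probe sets, and 0 higher. With treatment and number as a random term, 5 of 12 were called after acute and 3 of 12 after chronic morphine, and 2 of 12 between chronic and acute. Over all 27178 detected probe sets, that term left 184, 90 and 1945 calls in these comparisons. This list was written with the study known, and is no independent support. Of the 4 corticosteroid and thyroid hormone receptors, Nr3c1, the glucocorticoid receptor, was called lower after chronic morphine (-0.23, adjusted p = 0.0384, and 0.356 with the random term), and none after acute.

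Genes of amino acid and glucose metabolism that Klf15 is tied to in liver and muscle, 9 of 12 detected, had 2 called higher and 0 lower after acute morphine and 0 higher and 1 lower after chronic morphine, with medians of 0.12 and -0.05. The alanine aminotransferase gene Gpt2 averaged 552 in acute, 425 in chronic and 373 in saline arrays, an acute difference of 0.58 (SE 0.11, adjusted p = 0.00169). The proline dehydrogenase gene Prodh had an acute difference of 0.36 (adjusted p = 0.0131, and 0.117 with the random term), and the acetyl-CoA synthetase gene Acss1 had a chronic difference of -0.18 (adjusted p = 0.0360, and 0.285 with the random term). With the random term Gpt2 stayed called after acute morphine (adjusted p = 0.0198). Between chronic and acute, 3 of 9 were lower, among them Gpt2 (-0.38, adjusted p = 0.0122), against 14.6% of all detected probe sets, and with the random term 0 of 9 were (adjusted p = 0.0591 for Gpt2). The study had already placed Gpt2 and Klf15 among the genes that followed Tsc22d3 after morphine on these arrays. This list was chosen with that known, and is no independent support.

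Other members of the KLF and Sp families, 12 of 17 detected, had 0 called higher and 1 lower after each treatment. Klf16 was lower after acute morphine (-0.23, adjusted p = 0.0128) and Klf12, a Ctbp-binding repressor, after chronic morphine (-0.29, adjusted p = 0.0208). With treatment and number as a random term these adjusted p were 0.150 and 0.188. Of the 10 detected among 12 corepressors and coactivators, the acetyltransferase gene Kat2b was higher after acute morphine (0.21, adjusted p = 0.0474), and Ctbp2, the partner of Klf3 and Klf12, and the deacetylase gene Hdac1 were lower after chronic morphine (-0.42 and -0.22, adjusted p = 0.00812 and 0.0333). With the random term those 3 had adjusted p of 0.225, 0.103 and 0.238. Between chronic and acute, 3 of the 10 were lower and 0 higher, against 14.6% and 8.87% of all detected probe sets. They were Ctbp2 (-0.36), Hdac1 (-0.28) and Kat2b (-0.26). All 3 stayed called in that comparison with the random term (adjusted p = 0.0466, 0.0255 and 0.0342). Of 12 immediate early genes, Arc alone was called against saline, after chronic morphine (0.49, adjusted p = 0.00470, and 0.0949 with the random term), while with quantile normalization 4 were called higher after chronic morphine.

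Some markers of other cells in the tissue were also called. Of 8 endothelial markers 6 were detected, 0 higher and 1 lower after each treatment (Flt1, -0.27 after acute and -0.25 after chronic), and their summed intensity was 2230.4 to 3235 in acute, 2278 to 3477 in chronic and 2486 to 3829 in saline arrays. Among 6 detected of 8 genes that Klf2 and Klf4 control in endothelium, Tek was lower after acute morphine (-0.27, adjusted p = 0.00122) and 0 were higher. Of the same 6, Vcam1 (-0.35) and Nfe2l2 (-0.38) were lower in chronic than in acute arrays. Both stayed called with the random term (adjusted p = 0.0447 and 0.0195). All 8 astrocyte markers were detected, with 1 higher (Gjb6, 0.51) and 0 lower after acute morphine and 1 higher and 2 lower (Aqp4 and Gja1) after chronic morphine, and sums of 15503 to 17879 in acute, 14797 to 16801 in chronic and 14496 to 18051 in saline arrays. Of 7 detected oligodendrocyte markers, 1 was lower after acute and 3 after chronic morphine and 0 were higher, with sums of 16540.2 to 20273 in acute, 15581 to 20724 in chronic and 16195 to 24343 in saline arrays. Of 7 detected microglia markers, Cx3cr1 and Aif1 were lower after acute morphine and 0 after chronic, with sums of 3757 to 4972 in acute, 3572 to 5456 in chronic and 3843 to 5566 in saline arrays. Markers of cortical excitatory neurons, 5 of 6 detected, included Neurod2, called higher after chronic morphine (0.59, adjusted p = 0.00736), with sums of 1594 to 2809 in acute, 1469.7 to 3484 in chronic and 1090.2 to 2492 in saline arrays. The median difference of these 5 genes was 0.25 after acute and 0.65 after chronic morphine, against 0.02 and -0.02 over all detected genes. Their chronic differences ran from -0.02 to 0.82, and Neurod2 alone was called. In the fit with the random term, Tek (adjusted p = 0.0383), Gjb6 after acute morphine (0.00174), Cx3cr1 (0.0106) and, among oligodendrocyte markers, Ugt8a after acute and after chronic morphine (0.00859 and 0.00163) stayed called. Flt1 (adjusted p = 0.272 after acute and 0.346 after chronic), Aif1 (0.272), Neurod2 (0.0982), the oligodendrocyte markers Mag (0.219) and Cnp (0.0949) after chronic morphine, and the 3 astrocyte calls after chronic morphine (0.120 for Gjb6, 0.181 for Aqp4 and 0.214 for Gja1) did not. Between chronic and acute, 3 of 8 astrocyte and 3 of 7 oligodendrocyte markers were lower, against 14.6% of all detected probe sets. Of these, Gja1 (-0.31) and Cnp (-0.21) stayed called with the random term (adjusted p = 0.0112 and 0.0483). Cx3cr1 (0.32) and Neurod2 (0.47) were higher in that comparison, but not with the random term (adjusted p = 0.0553 and 0.0615). None of the 3 detected choroid plexus and 3 detected red blood cell markers was called. Their part in the differences of the Krüppel-like factors was not tested, and fewer cells of a type and less RNA per cell cannot be told apart in these bulk samples.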

How the data were processed

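Striatal RNA pools were hybridized to 36 Affymetrix Mouse Genome arrays of 1 colour. The deposited values are intensities on a linear scale: the authors processed the arrays by 3 methods, each with quantile normalization (RMA, a model-based expression index from perfect match and mismatch probes in dChip, and PDNN), and which of them gave this table is not stated. A shared lowest value of 6.69 held 3.67% to 4.53% of the values of each array. Arrays have no read depth, and precision depends on how many were hybridized and on the spread of each probe set.

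Groups came from the sample labels. Intensities were log2 transformed, and limma 3.58.1 in R 4.3.3 was fitted to the 12 group means over 27178 probe sets with an intensity above 100 on at least 9 arrays. Of the 45101 probe sets, 34945 had 1 gene symbol, 932 several and 9160 none, and 64 were controls. A positive difference means higher in the group named first. P-values were adjusted over all detected probe sets by the Benjamini-Hochberg method. Contrasts were called at an adjusted p under 0.05 and F-tests at an adjusted p under 0.01, and intervals are 95% intervals of the fit. Among the detected probe sets of a gene, the brightest by mean log2 intensity represented it, and every detected probe set of a member was tested. In other lists, up to 3 genes were to be named, those of smallest adjusted p against saline. Further names in the marker, endothelial target and glucocorticoid-responsive lists were chosen after their values were seen. Likeness is Pearson's r over the 36 arrays after subtraction of strain means. Scripts were tested on simulated data with independent noise for each array and no strain effects. Those data held no shared deviations by treatment and number, so the test cannot show calls that arise from them.

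The members, gene lists and tests were chosen with earlier results of these data known, and probe sets of Klf7, Klf9 and Klf15 and several glucocorticoid-responsive genes were already listed by the study on these arrays. Promoters of 8 of the 9 members were matched in the RefSeq table, Klf10 being absent from it, and protein sequences were not used here. Alternatives changed the filter, the offset before the logarithm, the normalization, the replicate block, array weights, moderation and the probe sets averaged, and each array was left out in turn. The averaged probe sets without C57BL/6J saline replicate 1, and with the random block, were alternatives chosen after seeing the data.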

Additional observations from a re-analysis of the deposited data

How the results depend on the processing

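Over the alternatives other than leaving out arrays, 57 counts of called members stayed within 1.5 times the original and 16 did not. Of the differences of single genes, 241 kept direction and side of the threshold, 10 gained a call, 5 lost it without a change of sign, and 14 changed sign. Without a filter on signal, 0 members were called after chronic morphine, 1 by the morphine F-test and 0 within single strains. With array weights, 6 were called after acute morphine, 9 between chronic and acute, 6 by the morphine F-test and 10 within strains. With ordinary statistics the morphine F-test called 7 and single strains 0, and with the 9 arrays of a strain alone 0. The share of all probe sets called in these fits was not computed, so the counts are no result about the members. The causes were not tested. The changes of sign were in differences that were not called in the changed fit. They were Klf2 after chronic morphine with quantile normalization (-0.0070) and equal medians (-0.0055), and Klf7 with quantile normalization (0.023). With array weights they were Klf2 (0.022 acute, -0.021 chronic, -0.042 chronic against acute) and Klf10 (0.018 acute). Averaged over all detected probe sets of the gene, they were Klf3 (-0.0094 acute, 0.014 chronic, 0.024 chronic against acute), Klf9 (-0.011 acute, 0.12 chronic against acute) and Klf13 (-0.029 acute, 0.12 chronic against acute). Of these, Klf3 between chronic and acute (-0.22, limma adjusted p = 0.0152) and Klf9 after acute morphine (0.18, adjusted p = 0.00648) were called in the original fit. The average thus lost these calls as well as their sign. The average taken without C57BL/6J saline replicate 1, chosen after seeing the data, kept the changes between chronic and acute, gave 0.027 for Klf3 and 0.013 for Klf7 after chronic morphine, and turned those of Klf3, Klf9 and Klf13 after acute morphine back.

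Replicate numbers did not pair treated with saline arrays: arrays of the same strain and number but another treatment had a mean correlation of deviations of 0.0306 over 36 pairs, whereas the same treatment and number in different strains had 0.264 over 54 pairs, of which 79.6% were over 0.1. With number as a fixed replicate block, the morphine F-test called 5 members, against 3700 of all 27178 detected probe sets. Single strains called 2 members, with no share over all probe sets computed. With treatment and number as a random replicate block (consensus correlation 0.2415), 1 member was called after acute and 0 after chronic morphine, 1 between chronic and acute and 0 by the morphine F-test. Over all detected probe sets that block left 184 calls after acute morphine, 90 after chronic, 1945 between them and 130 by the F-test.

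Leaving out each array in turn gave 3 to 5 members called after acute morphine, 0 to 6 after chronic morphine, 4 to 7 between chronic and acute, 1 to 5 by the morphine F-test, 4 to 6 by the strain F-test, 0 to 0 by the interaction, 0 to 2 within strains and 20 to 23 over pairs of strains. The count of 5 after acute morphine came without DBA/2J acute replicate 2, and those of 6 after chronic morphine, 7 between chronic and acute and 5 by the morphine F-test came without C57BL/6J chronic replicate 2. Shares over all probe sets were not computed with an array left out. Differences that changed sign ranged from -0.11 to 0.041 (acute), -0.047 to 0.079 (chronic) and -0.037 to 0.11 (chronic against acute) for Klf2, -0.0092 to 0.062 (acute) for Klf3, -0.026 to 0.019 (chronic) for Klf7, -0.084 to 0.010 (acute) for Klf10 and -0.064 to 0.014 (chronic against acute) for Klf13. Signals near the detection limit, as for Klf4, limit the fold that can be read.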
